A study of Homo sapiens with 12 samples.

Results

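The genes described here were silent, by the array's own detection call, in MDA-MB-231 cells with a control siRNA, and were called present once EZH2 had been knocked down. A probe belonged if its detection p, the chance that background alone gives so high a signal, was 0.05 or more on all 3 siNC CTRL arrays and under 0.05 on all 3 siEZH2 CTRL arrays. The rule found 123 of 22184 probes and, with 1 probe kept per gene, 122 of 18141 genes. MDA-MB-231 is a human triple-negative breast cancer line. Its cells were transfected with an siRNA against EZH2 (siEZH2), RELA (siRelA) or RELB (siRelB), or with a negative control siRNA (siNC), and then received 10 ng/ml TNFalpha for 4 h (TNF) or none (CTRL). There were 3 arrays of siEZH2 CTRL and 3 of siNC CTRL, and 1 array each of siEZH2 TNF, siRelA TNF, siRelA CTRL, siRelB TNF, siRelB CTRL and siNC TNF. All groups come from this single line, and the labels name neither the siRNA sequences nor separate cultures. Differences between replicates may therefore be technical only.

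EZH2 is the catalytic subunit of Polycomb repressive complex 2 (PRC2), which methylates histone H3 at lysine 27 and thereby keeps genes silent, many of them genes of other lineages and of development. RELA and RELB are NF-kB subunits: RELA carries the rapid response to TNFalpha, a cytokine, and RELB acts mainly in the slower non-canonical branch. Loss of a repressor can leave a gene active that the cell had kept off, and a detection call at background is the array's nearest reading of that state.

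Levels below are background-corrected, quantile-normalized probe intensities on a log2 scale, on which the lowest detected probe of an array lay between 5.12 and 5.24. A probe's level was not set against that of another. The knockdowns were visible in the targeted genes. EZH2 had 6.53, 5.47 and 6.36 on siEZH2 CTRL arrays 1, 2 and 3 and 6.60 on siEZH2 TNF, against 9.19, 8.30 and 9.19 on siNC CTRL arrays 1, 2 and 3 and 9.22 on siNC TNF. It had 9.35 and 9.42 with siRelA (TNF and CTRL) and 9.52 and 9.49 with siRelB, and these 4 arrays with siNC TNF are here called the arrays keeping EZH2. RELA had 5.00 and 5.03 with siRelA (TNF and CTRL), against 6.89 on siNC TNF. RELB had 6.30 and 5.09 with siRelB, but also 6.14 and 5.85 with siRelA, against 8.32 on siNC TNF. The mesenchymal markers VIM, CD44 and AXL and the epithelial EPCAM were detected on all 12 arrays, the epithelial CDH1 on 7 and the endothelial PECAM1 on 11. The hormone receptors ESR1 and PGR, the endothelial VWF and CDH5 and the lymphocyte CD3E were detected on none. Of 12 endothelial markers, 5 to 7 were detected on each array. Replicate 2 of siEZH2 CTRL and of siNC CTRL stood apart by a higher background signal (99.7 and 101.5, against 58.1 to 80.1 on the other 10 arrays). The siNC TNF array was read from 23.6 beads per probe on average, against 40.8 to 43.1 elsewhere.

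The member probes were dim even after EZH2 knockdown. Their median raw signal was 1.62, 1.37 and 1.44 times the background of siEZH2 CTRL arrays 1, 2 and 3, against 1.11, 1.07 and 1.11 times on siNC CTRL arrays 1, 2 and 3. Among the other 7600 probes that were undetected on siNC CTRL, the median on those siNC CTRL arrays was 0.966, 0.981 and 0.967 times background, so that members already lay nearer the detection limit. Because siNC CTRL gave no detected level, a fold is stated as at least N-fold, taking the higher of the probe's own value and the lowest detected value of each array. So computed, the median of this bound over the members was 1.48-fold, 29 of 122 passed 2-fold, and for 2 it was under 1. These values chose the genes and carry no test. In bulk RNA, more cells with a transcript and more of it per cell cannot be told apart.

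The rule's edge cut through a continuum. Just inside it on the siNC side were CDH24, PLCXD1 and TPD52, with a lowest detection p of 0.05, 0.0505 and 0.0514. Just outside were PSKH1, ASPHD2 and ODAPH (0.0486, 0.0471 and 0.0460). On the siEZH2 side FLJ44048, HYAL1 and CCDC80 were just inside (highest p 0.0497, 0.0497 and 0.0485) and NKPD1, DKFZP564J102 and MOCS3 just outside (0.05, 0.0512 and 0.0515). Without siNC CTRL replicate 2 the rule took in 267 genes and without siEZH2 CTRL replicate 2 it took in 215, against 144 to 172 without any other single array. Asking for p under 0.01 on siEZH2 CTRL left 64 genes.

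For 88 members the array holds 1 probe, and for 34 it holds more. In 24 of those, another probe was detected on at least 1 siNC CTRL array, and in 18 on all 3, so for these the rule picks out a probe and not a silent gene. ANGPTL4, a secreted inhibitor of lipoprotein lipase, shows this: its second probe had raw signals of 3111, 3252 and 2936 with siEZH2 CTRL, against 541, 249 and 579 with siNC CTRL. LAMB3, a laminin chain of basement membranes, had a second probe at 6034, 8173 and 5646, against 2459, 3222 and 2432. Both genes were thus transcribed with the control siRNA. FLCN, the lysosomal mTORC1 regulator folliculin, had one bright probe whose log2 difference between siEZH2 TNF and siNC TNF was -0.01, beside the member probe's 1.27. Another FLCN probe, detected on 2 of 3 siNC CTRL arrays, differed by 1.65. Over the 18 genes, the brightest such probe was higher on siEZH2 TNF than on siNC TNF for 12 (median log2 difference 0.36, range -0.54 to 2.44). The other 98 members had no probe that was detected on any siNC CTRL array.

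The strongest member was PLD5, a member of the phospholipase D family. It had 9.08, 9.18 and 9.01 on siEZH2 CTRL arrays 1, 2 and 3, against 4.65, 4.81 and 4.70 on siNC CTRL arrays 1, 2 and 3, at least 15-fold. MUC1, the transmembrane mucin of epithelial surfaces, had 7.68, 7.67 and 7.59, against 4.80, 4.94 and 4.82 (at least 5.53-fold). In both genes the 3 siEZH2 arrays lay close together and far above every siNC array. MALL, a membrane raft protein of the MAL family, had 7.68, 6.68 and 7.67, against 4.77, 4.88 and 4.82 (at least 4.47-fold). NES, the intermediate filament nestin of neural progenitors, had 7.80, 6.44 and 7.16, against 4.56, 4.56 and 4.75 (at least 3.86-fold). FBN2, the microfibril protein fibrillin-2, had 6.26, 8.30 and 6.38, against 4.42, 4.75 and 4.43 (at least 3.48-fold). Here replicate 2 differed from the others: among the siEZH2 arrays it was lowest for MALL and NES and highest for FBN2.

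The promoters of the first 4 members by the siEZH2 TNF minus siNC TNF difference that have one in the RefSeq table are shown, because CpG-rich promoters are the usual sites of PRC2 in mammalian genomes. Each runs 5′ to 3′ from 250 bases before to 50 bases after the gene's start (RefSeq, GRCh38.p14), with every CG in capitals. PLD5 is at chr1:242524648-242524947, minus strand, MALL at chr2:110118090-110118389, minus strand, MUC1 at chr1:155192866-155193165, minus strand and SDCBP2, which encodes the PDZ protein syntenin-2, at chr20:1329090-1329389, minus strand.
PLD5: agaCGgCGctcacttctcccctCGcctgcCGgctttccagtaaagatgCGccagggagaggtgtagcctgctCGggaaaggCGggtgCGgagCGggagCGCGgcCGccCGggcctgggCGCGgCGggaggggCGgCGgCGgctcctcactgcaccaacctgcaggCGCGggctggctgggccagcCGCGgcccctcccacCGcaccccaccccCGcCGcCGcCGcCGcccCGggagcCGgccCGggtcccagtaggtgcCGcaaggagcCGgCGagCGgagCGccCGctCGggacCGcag
MALL: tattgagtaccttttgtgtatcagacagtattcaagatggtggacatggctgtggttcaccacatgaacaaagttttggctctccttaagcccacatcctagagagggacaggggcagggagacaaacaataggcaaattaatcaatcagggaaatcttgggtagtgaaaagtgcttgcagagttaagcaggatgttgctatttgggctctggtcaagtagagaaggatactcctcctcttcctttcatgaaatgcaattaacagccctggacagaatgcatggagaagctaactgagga
MUC1: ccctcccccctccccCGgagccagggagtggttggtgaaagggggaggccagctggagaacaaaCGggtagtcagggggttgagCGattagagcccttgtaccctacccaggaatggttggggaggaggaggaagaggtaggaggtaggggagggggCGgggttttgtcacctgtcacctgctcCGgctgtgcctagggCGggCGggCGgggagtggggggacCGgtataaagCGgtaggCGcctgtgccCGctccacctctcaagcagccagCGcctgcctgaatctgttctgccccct
SDCBP2: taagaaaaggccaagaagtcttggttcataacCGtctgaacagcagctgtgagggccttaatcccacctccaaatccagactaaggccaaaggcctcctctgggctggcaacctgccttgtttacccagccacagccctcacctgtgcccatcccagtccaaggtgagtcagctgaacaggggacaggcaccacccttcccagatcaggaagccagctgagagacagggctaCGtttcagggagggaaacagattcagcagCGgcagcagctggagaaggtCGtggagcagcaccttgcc

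These 4 promoters held 40, 0, 13 and 4 CG dinucleotides, so the members with the largest differences included both a CpG-dense and a CpG-free promoter. A RefSeq promoter was matched for 91 of 122 members. Their median was 23 CG (quartiles 10 and 33), against 23 over the 13639 matched genes on the array and 9 over 3736 other genes with no probe detected on siNC CTRL. Taking a promoter as CpG-rich where its G and C bases passed 50% and its CG count 0.6 of that expected from them, 63.7% of members were CpG-rich, against 65.2% of array genes and 38.5% of the other undetected genes. As a description, the 91 members thus resembled the array as a whole in CpG content more than the other undetected genes. The 46 promoters of members called higher on siEZH2 TNF in the fit given below lay in between. Their median was 19.5 CG, and 56.5% were CpG-rich. On either strand, TATAAA stood in 8.79% of members' promoters, against 9.3% of array genes. The AP-1 letters TGANTCA stood in 4.40% against 5.59%, the NF-kB core, GGG and CC with any 5 bases between, in 71.4% against 67.9%, and the GC box CCGCCC in 65.9% against 60.0%. The last pair can overlap in G-rich runs. Of the other undetected genes, 15.3% had TATAAA, 7.04% the AP-1 letters, 58.4% the NF-kB core and 42.5% the GC box. In the 46 promoters of called members these shares were 15.2%, 8.70%, 71.7% and 58.7%. The E2F letters TTTCGCGC and TTTGGCGC were in none of the 91, against 0.821% and 0.894% of array genes.

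The siEZH2 TNF array took no part in choosing the genes and asks whether they are present on another array with EZH2 knocked down. On it 95 of 122 members (77.9%) were detected, against 3.08% of the other 7600 probes that had been undetected on siNC CTRL. On siNC TNF 10 members were detected (8.20%, against 3.01% of the other probes). For 88 members the call was present on siEZH2 TNF and absent on siNC TNF, a state shared by 4.12% of all probes and 2.38% of the other siNC-undetected ones. Of the rest, 7 were detected on both arrays (BMF, FBLN7, FLJ33790, PHLDA3, SLC6A8, TMEM143 and VPREB3), 3 on siNC TNF only (EPB41L4A, LIMD1 and TPD52) and 24 on neither. At a detection p under 0.01 the counts were 81 on siEZH2 TNF and 3 on siNC TNF, against 0.987% and 0.842% of the other siNC-undetected probes. Genes with the opposite history, detected on all siNC CTRL and on no siEZH2 CTRL array, numbered 94, of which 16 were detected on siEZH2 TNF and 79 on siNC TNF.

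**Figure D1:**
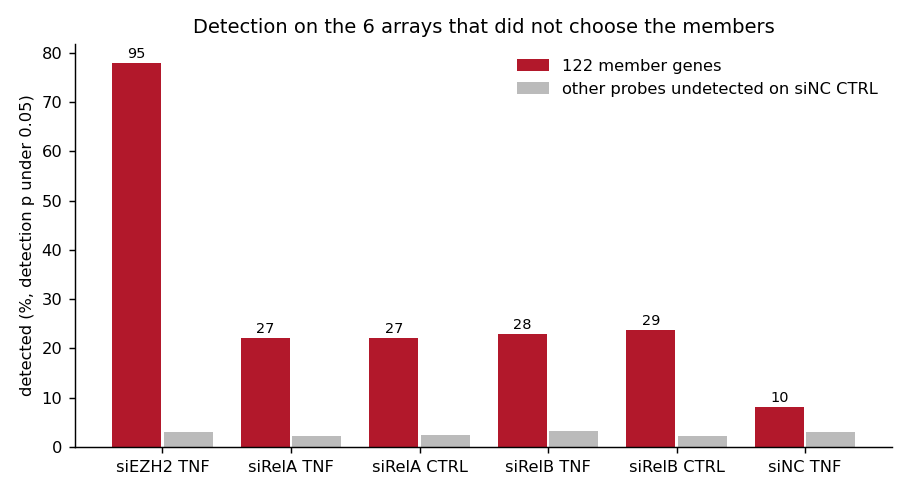
Share of genes or probes detected (per cent, detection p under 0.05) on the 6 arrays that did not choose the members. Red bars are the 122 members, with their number above, and grey bars the 7600 other probes undetected on siNC CTRL. The siEZH2 TNF bar stands at 77.9%, the siRelA and siRelB bars between 22.1% and 23.8%, and siNC TNF at 8.20%.

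With 1 array each, the siEZH2 TNF minus siNC TNF difference has no replicate check. It was above 0 for 115 of 122 members and above 1 on the log2 scale (over 2-fold in measured values) for 58, while none was over 2-fold lower. Over all 12276 genes tested, 6.25% were over 2-fold higher and 5.75% lower. The members' median difference was 0.96 (quartiles 0.42 and 1.35), against 0.00 over all genes. Counted as a bound, since siNC TNF gave no detected level for most, 24 members passed 2-fold. Against the mean of siRelA TNF and siRelB TNF, which avoids the array with few beads, 47 members were over 2-fold higher. There 1406 of 12276 genes passed 2-fold in either direction. The count was 16 without background correction and 16 in the authors' processed values, both of which start from signals with no background taken off. Over all genes, 852 and 817 then passed 2-fold in either direction, against 1473 in the main run. Below 0 were TPD52, LIMD1, ARSG, EPB41L4A, BSN, STC2 and SLC6A8, the lowest being TPD52, a vesicle traffic gene, with 5.03 on siEZH2 TNF, against 5.63 on siNC TNF.

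**Figure D2:**
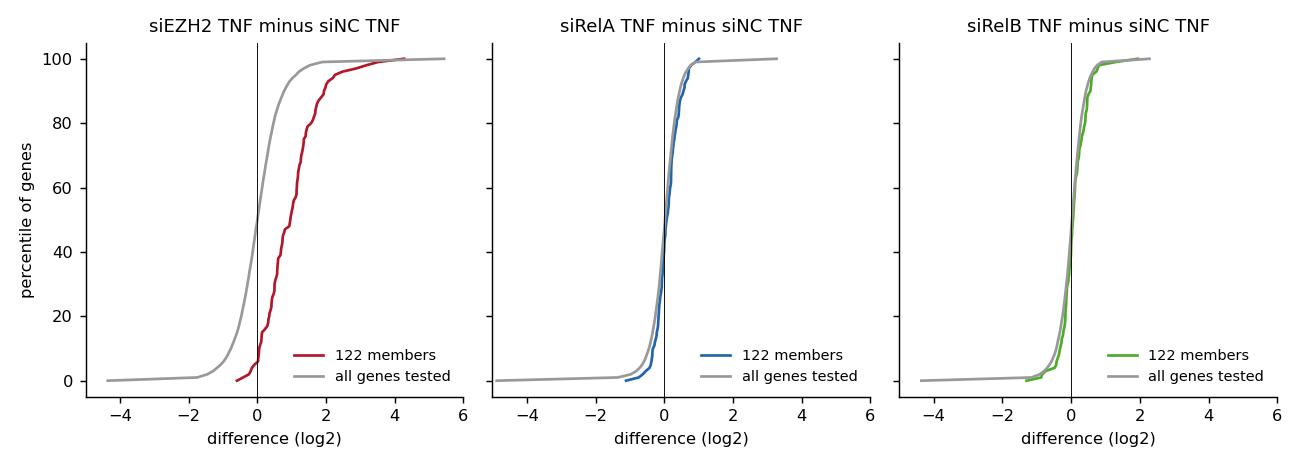
Percentile curves of the log2 difference from siNC TNF for siEZH2 TNF, siRelA TNF and siRelB TNF (x axis, log2; y axis, percentile of genes). Coloured lines are the 122 members and grey lines all 12276 genes tested. With siEZH2 TNF the members' median is 0.96, while with siRelA TNF and siRelB TNF it is 0.07 and 0.05 and the lines nearly coincide.

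A limma fit set siEZH2 TNF against the 5 arrays keeping EZH2, with TNF as a covariate, over all 12276 genes. No group in it has a replicate, so its spread is that between knockdowns and includes the siRelA and siRelB effects. The single siEZH2 TNF array was assumed to vary like the others. At an adjusted p under 0.05 (Benjamini-Hochberg), 61 of 122 members were higher and none lower, where 8.90% of all genes were higher and 9.39% lower. The members' median log2 difference was 0.82, against -0.01 over all genes. In 96 members siEZH2 TNF lay above all 5 other arrays, as it did for 32.2% of all genes. Every member had passed the filter on dim probes through the siEZH2 CTRL arrays. With a filter on the 6 arrays of this comparison alone, 51 members remained. Their median log2 difference was 0.70, against -0.02 over the 11879 genes that passed it. With 1 array left out at a time, the members' median ran from 0.81 to 0.84, against -0.01 over all genes.

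**Figure D3:**
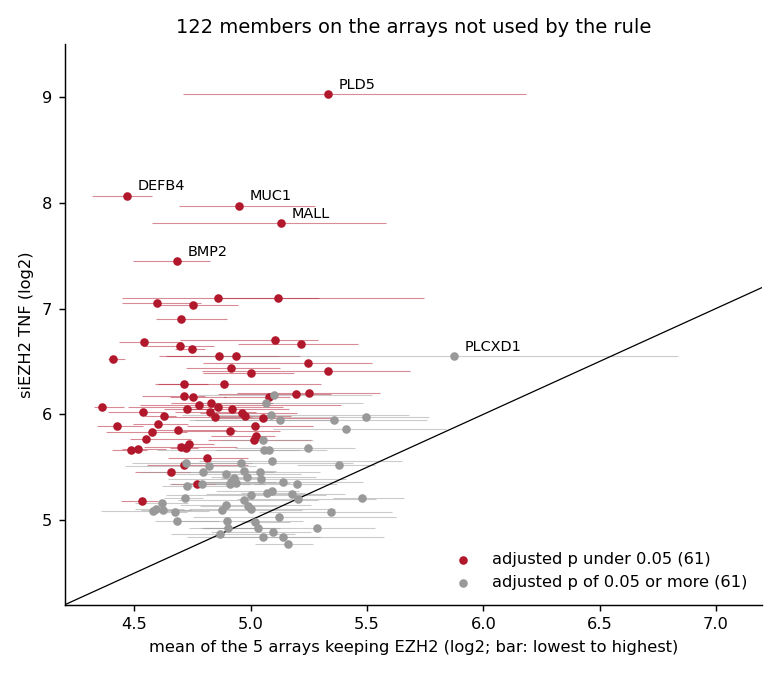
Level on siEZH2 TNF (y axis, log2) against the mean of the 5 arrays keeping EZH2 (x axis, log2) for the 122 members; horizontal bars run from the lowest to the highest of the 5 arrays and the black line marks equality. Red points are the 61 members with a limma adjusted p under 0.05 and grey points the other 61. PLD5 lies at the top with the wide bar that its siRelB arrays give it, and PLCXD1 lies far right for the same reason.

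Secreted signals gave 7 calls in 9 genes. The groups used here were formed by known function after the members had been seen, and carry no test. BMP2, a bone morphogenetic protein that signals through SMADs, had 7.45 on siEZH2 TNF and 6.68, 6.30 and 7.18 on siEZH2 CTRL. On the 5 arrays keeping EZH2 it had 4.50 to 4.82, below detection throughout, which made it at least 4.78-fold higher on siEZH2 TNF (limma adjusted p = 0.00239). NRTN, the GDNF-family ligand neurturin, had 6.55, against 4.61 to 5.12 (at least 2.56-fold, limma adjusted p = 0.00482). SPINK1, a secreted trypsin inhibitor, had 6.29, against 4.60 to 4.82. TGFB3, a transforming growth factor, had 5.97, against 4.64 to 5.01. The cytokine IL17D, the semaphorin SEMA7A and ANGPTL4 also passed. METRNL, a secreted meteorin-like factor, was at 6.11 but reached 5.48 on siRelA TNF, and missed (adjusted p = 0.0553). STC2, the glycoprotein stanniocalcin-2, was at 4.87 on siEZH2 TNF, against 4.66 to 5.19, within the range of the other arrays.

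Of 9 epithelial surface and junction genes 6 rose. MALL had 7.81 on siEZH2 TNF, against 5.29 and 5.32 with siRelA (TNF and CTRL), 4.88 and 5.58 with siRelB and 4.57 on siNC TNF (log2 difference from the 5 arrays 2.89 ± 0.28, SE, limma adjusted p = 0.0034). MUC1 had 7.97, against 5.28 and 4.95 with siRelA, 4.69 and 4.97 with siRelB and 4.87 on siNC TNF (3.03 ± 0.24, limma adjusted p = 0.00251). The siEZH2 TNF array stood above all others in both, while 3 of the other 5 arrays detected MALL and 1 detected MUC1. A second MUC1 probe was detected on 1 siEZH2 CTRL array and no siNC CTRL array. Its siEZH2 TNF minus siNC TNF difference was 0.005, beside the member probe's 3.11. SDCBP2 had 7.04, against 4.61 to 4.95 (at least 3.59-fold), although a second SDCBP2 probe was detected with siNC and differed by less, 0.81 on the log2 scale from siNC TNF. KRTAP13-2, a hair keratin-associated protein gene, had 7.05, against 4.45 to 4.78 (at least 3.63-fold, limma adjusted p = 0.00251). The cadherin CDH24 and PROM2, a prominin of membrane protrusions, passed too. A further CDH24 probe, undetected on every siNC CTRL and siEZH2 CTRL array, differed by -0.51 from siNC TNF, beside the member probe's 1.59. The junction genes CGNL1 and CLDN8 had 5.44 and 5.28 on siEZH2 TNF and did not pass. TPD52, counted in this group too, went the other way, with a siEZH2 TNF minus siNC TNF difference of -0.59. MUC1 is itself a luminal marker. Of 24 luminal markers on the array 13, 10 and 11 were detected on siEZH2 CTRL arrays 1, 2 and 3, against 12, 12 and 11 on siNC CTRL arrays 1, 2 and 3.

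**Figure D4:**
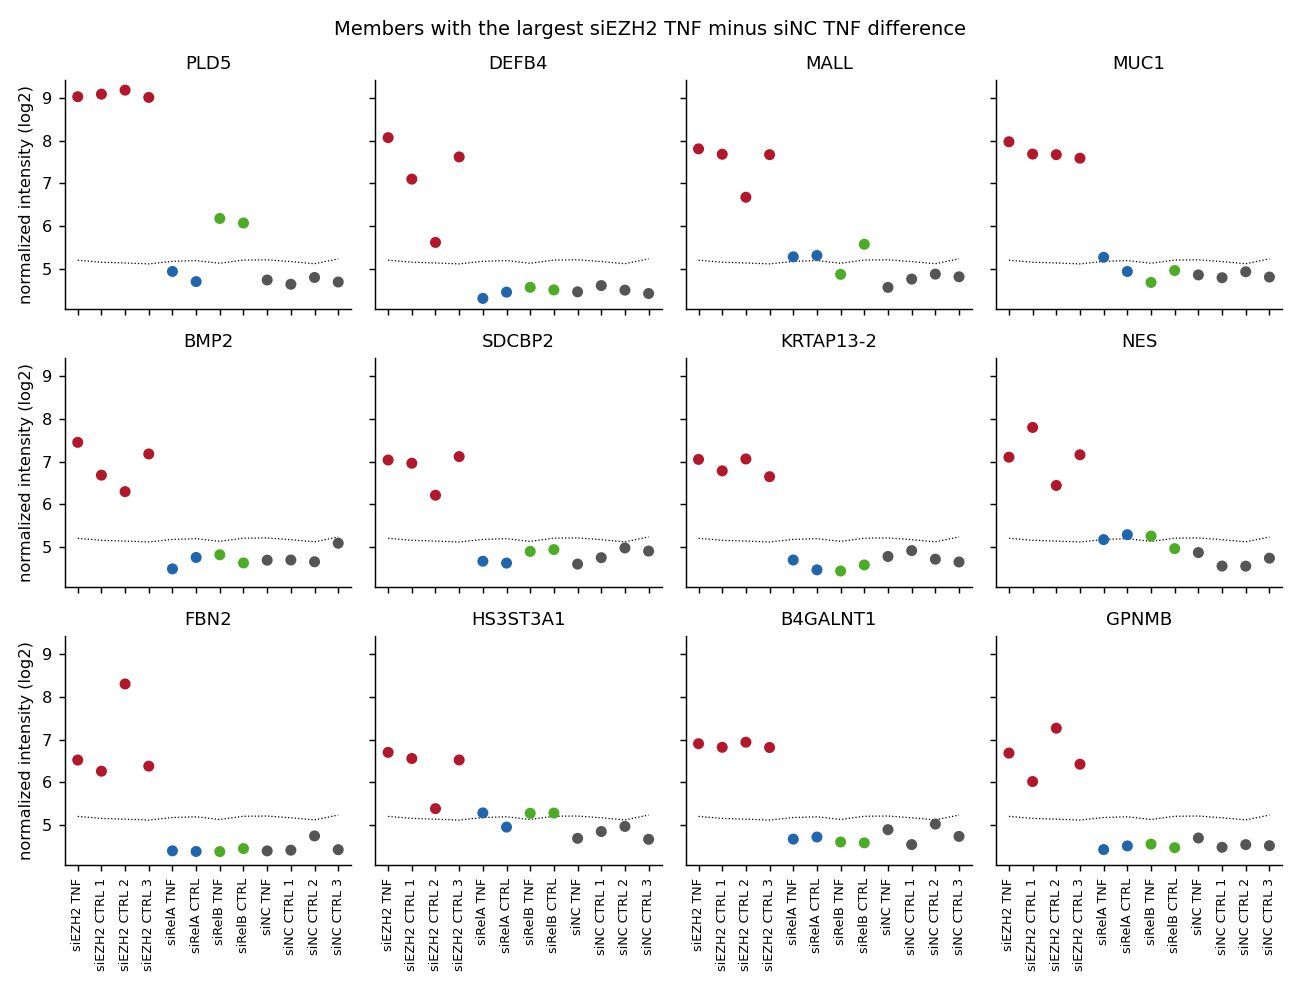
Normalized intensity (log2) on each of the 12 arrays for the 12 members with the largest siEZH2 TNF minus siNC TNF difference. Points are single arrays, red for siEZH2, blue for siRelA, green for siRelB and grey for siNC, and the dotted line is the lowest detected value of each array. Red points lie above the line in every panel. Some other points do too, among them PLD5 on both siRelB arrays, MALL on both siRelA arrays and siRelB CTRL, and MUC1 on siRelA TNF.

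In the extracellular matrix group 6 of 11 rose. FBN2 had 6.52 on siEZH2 TNF, against 4.39 to 4.46 (at least 2.52-fold, limma adjusted p = 0.00244). HAPLN3, a hyaluronan and proteoglycan link protein, had 6.65, against 4.54 to 4.84 (at least 2.75-fold). FN1, which encodes fibronectin, had 5.77, against 4.48 to 4.74 (at least 1.49-fold, limma adjusted p = 0.00566). All 3 were undetected on each array keeping EZH2. ADAMTSL4, a microfibril-binding protein, and the fibulin FBLN7 passed as well, FBLN7 from a level of 5.39 on siNC TNF, where it was detected. FBLN7 lost its call when any 1 of the 4 siRelA and siRelB arrays was left out. MMP23A also passed, but its sequence is nearly that of MMP23B, so the probe may read either gene. The matrix protease MMP11, the laminin chain LAMB3 and the proteoglycan GPC1 had 5.54, 5.76 and 5.51 on siEZH2 TNF and did not pass. For LAMB3 this holds for the member probe only, which differed by 0.69 from siNC TNF. Further LAMB3 probes, detected with siNC, differed by 1.25 and 1.24.

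Genes known from neurons, muscle and other excitable cells made up 15 members, of which 6 passed. NES had 7.10 on siEZH2 TNF, against 4.88 to 5.29 on the 5 other arrays, of which 2 detected it (limma adjusted p = 0.0045). SLC1A1, a glutamate transporter, had 5.83, against 4.38 to 4.72. ICAM5, an adhesion molecule of telencephalic neurons, and the semaphorin receptor PLXNB3 were also called. ASIC1, an acid-sensing sodium channel, had 6.19 on siEZH2 TNF and 5.52 and 5.47 with siRelA (TNF and CTRL), against 4.83 on siNC TNF, and was not called (adjusted p = 0.066). SYNGR1, a synaptic vesicle protein, likewise had 5.97 on siEZH2 TNF and 5.61 to 5.77 on the 4 siRelA and siRelB arrays, against 4.83 on siNC TNF. DNM1 and BSN, of synaptic endocytosis and of the presynaptic active zone, were at 4.92 and 4.92 on siEZH2 TNF, undetected there.

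Among 16 genes of metabolism and transport 7 passed. PLD5 had 9.02 on siEZH2 TNF, against 4.75 on siNC TNF (at least 14-fold), and its spread over the other 5 arrays, 4.71 to 6.18, gave it a large error (3.73 ± 0.66, SE, limma adjusted p = 0.0129). B4GALNT1, the enzyme that makes the gangliosides GM2 and GD2, had 6.90, against 4.59 to 4.90 (at least 3.28-fold). Its 3 siEZH2 CTRL arrays, at 6.82, 6.94 and 6.82, lay close to it. HS3ST3A1, a sulfotransferase of heparan sulfate, had 6.70, against 4.70 to 5.29 (adjusted p = 0.0121 in the limma fit). The glycosyltransferase-like gene GLT8D2 passed too. Most of the others, among them the acyl-CoA thioesterase gene ACOT7 and the sulfatase gene ARSG, had member probes near detection on siEZH2 TNF (4.99 and 4.77). ACOT7 has further probes, the brightest of which was at 12.60 on siEZH2 TNF, against 12.39 on siNC TNF. Of the lysosome pair, GPNMB, a glycoprotein of lysosomes and melanosomes, had 6.69, against 4.43 to 4.70 (at least 2.82-fold, limma adjusted p = 0.00251), and FLCN passed on its member probe.

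Defence and immune genes numbered 7, of which 4 passed. The probe named DEFB4 reads beta-defensin 2, an epithelial antimicrobial peptide with near-identical gene copies that it cannot tell apart. It had 8.07 on siEZH2 TNF and 7.10, 5.62 and 7.62 on siEZH2 CTRL, against 4.32 to 4.58 on the arrays keeping EZH2, TNF or not (at least 7.35-fold, limma adjusted p = 0.0012). DPP4, a cell-surface dipeptidase, had 6.07, against 4.33 to 4.45 (limma adjusted p = 0.00295). HCST, the adaptor DAP10 of the lymphocyte receptor NKG2D, had 6.17, against 4.53 to 4.80. PML, scaffold of nuclear bodies, passed as well on its member probe, and lost its call in 4 alternatives. Further PML probes were detected on 2 and on 1 of the 3 siNC CTRL arrays. Their siEZH2 TNF minus siNC TNF differences were 0.38 and 0.04, beside the member probe's 0.73. Of the blood cell markers, 9, 7 and 10 of 22 were detected on siEZH2 CTRL arrays 1, 2 and 3, against 9, 7 and 8 on siNC CTRL arrays 1, 2 and 3. Their summed normalized intensity was 3303 to 5715 on siEZH2 CTRL and 4031 to 6555 on siNC CTRL. CD3E and SPI1 were undetected on all 12 arrays, and PTPRC, the leukocyte antigen CD45, was detected on 4.

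Receptors and signalling genes gave 7 calls in 13. SHC4, an adaptor of receptor tyrosine kinases, had 6.55 on siEZH2 TNF, against 4.64 to 5.21 (limma adjusted p = 0.0045). MRGPRX4, a G protein-coupled receptor, had 6.03, against 4.39 to 4.63. EDNRA, the endothelin A receptor, had 5.71, against 4.68 to 4.84 (limma adjusted p = 0.00991). MRGPRX4 and EDNRA were undetected wherever EZH2 was kept (EDNRA at least 1.44-fold), while SHC4 was detected on siRelA CTRL. DEPTOR, an inhibitor of mTOR, passed at 0.0409 and lost its call in 5 alternatives. Of 7 DNA-binding genes 2 passed. HOXC4, a homeobox gene of body patterning, had 6.44, against 4.72 to 5.12 (at least 2.37-fold, limma adjusted p = 0.00714), and the other, ZNF3, was a zinc finger gene. Both have further probes. Another HOXC4 probe was detected on 1 siNC CTRL array and on no siEZH2 CTRL array, and its siEZH2 TNF minus siNC TNF difference was -0.50, beside the member probe's 1.41. Another ZNF3 probe was detected on all 3 siNC CTRL arrays (0.20, beside the member probe's 0.68). EN2, the homeobox gene engrailed 2, had 5.36, against 4.75 to 5.11, and did not pass (adjusted p = 0.101).

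Of 5 genes of cell death and stress 2 passed. GSDMC, a gasdermin, had 5.89 on siEZH2 TNF, against 4.34 to 4.54 (limma adjusted p = 0.00455). BMF, a BH3-only activator of apoptosis, has further probes, undetected on every siNC CTRL and siEZH2 CTRL array. These differed by 0.05 and -0.09 between siEZH2 TNF and siNC TNF, beside the member probe's 1.35. On its member probe, BMF was among the few members with a level on siNC TNF. It had 7.10 on siEZH2 TNF and 6.89, 6.54 and 7.06 on siEZH2 CTRL, against 5.75 on siNC TNF and 4.91, 4.93 and 4.88 on siNC CTRL. With siRelA it had 4.64 and 4.89 (TNF and CTRL) and with siRelB 4.45 and 4.58, undetected on all 4. Its limma adjusted p was 0.0238, and ranged from 0.00583 to 0.052 over the alternatives, the call being lost without the siRelA TNF array. PHLDA3, a p53-induced inhibitor of Akt, and DDIT4L, an mTOR inhibitor, were detected on siEZH2 TNF and did not pass. The remaining 28 members, with other or unknown roles, gave 12 calls, led by TMEM117, a membrane protein gene at 6.62, against 4.68 to 4.80 (at least 2.69-fold).

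**Figure D5:**
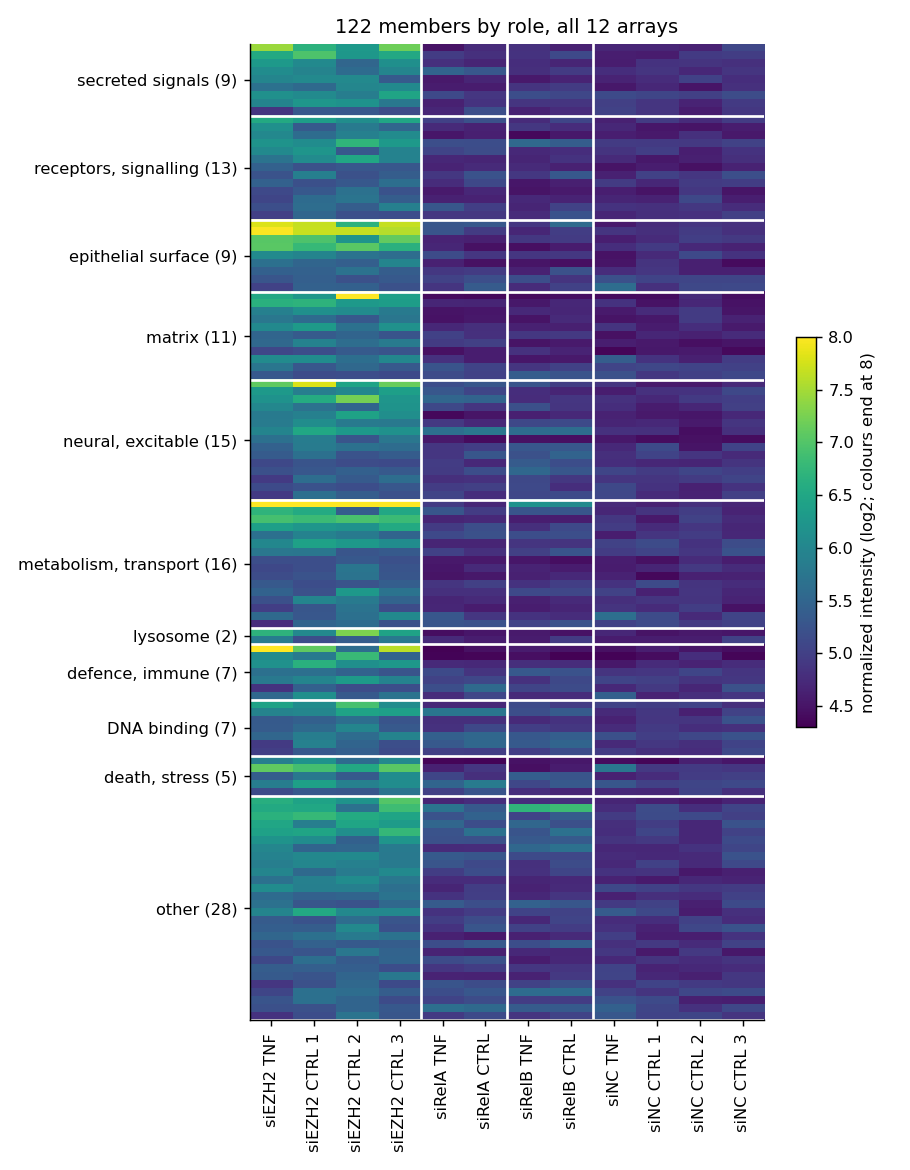
Normalized intensity (colour, log2, colours ending at 8) of the 122 members (rows, grouped by role with the number of genes, and ordered by siEZH2 TNF minus siNC TNF) on the 12 arrays (columns). The 4 siEZH2 columns are brighter in every group, and isolated bright rows under siRelB include PLD5 and PLCXD1.

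Lists of known pathways held few members. None of 11 PRC2 genes, 35 genes listed here as EZH2-silenced or 65 NF-kB targets on the array was a member. Nor was any of 47 interferon genes, 48 lysosome and autophagy genes or 63 neuroendocrine genes. Over the array 122 of 18141 genes were members, so a list this short can hold none without being unusual. Only genes with a probe undetected on siNC CTRL could be members. These numbered 1, 16, 3, 5, 11 and 39 in the lists, in the order given. Developmental transcription factors gave 2 of 194 (EN2 and HOXC4), or 1.64% of members against 1.07% of array genes and 1.76% of genes with a probe undetected on siNC CTRL. Hypoxia genes gave 2 of 32 (ANGPTL4 and STC2), or 1.64% of members against 0.176% of array genes and 0.0735% of those undetected genes. Matrix and adhesion names made up 8.20% of members, against 2.02% of array genes and 3.31% of those undetected genes. For secreted ligands the shares were 4.92%, 1.57% and 2.25%, and for G protein-coupled receptors 3.28%, 3.72% and 7.01%. Members were counted by name patterns set with earlier results in view, so the shares are descriptions. In the same limma fit, 1 of 11 PRC2 genes was higher on siEZH2 TNF (JARID2, an accessory subunit, log2 difference 1.16) and 2 were lower (EZH2 and the accessory subunit AEBP2, -2.76 and -0.94). Of 25 tested EZH2-silenced genes 4 were higher (CDKN1C, IGFBP3, TIMP2 and VASH1, log2 differences 0.93 to 2.44) and 3 lower (DKK3, PEBP1 and E2F1, -2.13, -1.02 and -0.79), where 8.90% of all genes were higher and 9.39% lower.

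The test for TNF called no gene, member or other, and so cannot set members apart. On simulated data it recovered 0% of genes changed by 1 on the log2 scale. Across siRelA and siRelB, the TNF minus CTRL difference (2 arrays against 2) was fitted in limma with the spread of the siNC CTRL and siEZH2 CTRL replicates. The siRelA, siRelB and TNF groups, with 1 array each, added nothing to that spread. The difference was called for no member and for 0.0% of all genes, while 12 genes (0.0978%) and no member had an unadjusted p under 0.05. The members' median was -0.04, against -0.01 over all genes. In the authors' processed values 73 genes were called and again no member. As values without replicates, the median TNF minus CTRL difference was -0.07 with siEZH2 and -0.02 with siNC. DEFB4 had the largest such difference with siEZH2, 1.29, with 8.07 on siEZH2 TNF, against 7.10, 5.62 and 7.62 on siEZH2 CTRL. BMP2 followed with 0.73, against siEZH2 CTRL values of 6.68, 6.30 and 7.18. Both lay above all 3 CTRL arrays, each by less than the CTRL arrays differed among themselves. With siNC the largest was BMF, 0.84.

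Knockdown of RELA or RELB left most members undetected. On the siRelA TNF and CTRL arrays 27 and 27 of 122 were detected, and on the siRelB TNF and CTRL arrays 28 and 29. These shares, 22.1% to 23.8%, compare with 2.26% and 2.49% of the other siNC-undetected probes on the siRelA TNF and CTRL arrays and 3.28% and 2.25% on the siRelB TNF and CTRL arrays. But at a detection p under 0.01 the counts were 9, 10, 16 and 11, against 0.421%, 0.566%, 1.29% and 0.789% of those other probes. Of the members 70 were detected on none of the 4 arrays, and 51 on siEZH2 TNF alone among the 6. Detected on all 4 were ANKRD13B, EPB41L4A, GLI4, OSR2, PLCXD1, SYNGR1, TMEM236 and ZNF605. ZNF605, a zinc finger gene, had 5.75 and 5.76 with siRelA (TNF and CTRL) and 5.19 and 5.36 with siRelB, against 4.74 on siNC TNF, and it had 5.95 on siEZH2 TNF.

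Set against siNC TNF, 1 member was over 2-fold higher on siRelA TNF (ZNF605) and 1 lower (BMF), where 0.692% of all genes were higher and 1.91% lower. On siRelB TNF 2 were higher (PLCXD1 and PLD5) and 1 lower (BMF), where 0.546% were higher and 1.52% lower. BMF was undetected on both arrays and detected on siNC TNF. The members' medians were 0.07 and 0.05, against 0.02 and 0.02 over all genes. With scaling to the 75th percentile they were -0.00 and 0.01, and in the authors' processed values -0.12 and -0.16, so their sign was not settled. These comparisons and the siEZH2 one share the siNC TNF array.

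PLD5 and PLCXD1 showed the widest gaps between siRelA and siRelB. PLD5 had 4.95 and 4.71 on siRelA TNF and CTRL, both undetected, against 6.18 and 6.08 on siRelB TNF and CTRL, both detected, hence at least 1.92-fold less with siRelA. Its siRelB values were still below the 9.02 of siEZH2 TNF. PLCXD1, a phospholipase C-like gene of the pseudoautosomal region, had 5.70 and 5.34 with siRelA, against 6.71 and 6.84 with siRelB, 2.39-fold less with siRelA. All 4 values were detected, and those of siRelB exceeded the 6.55 of siEZH2 TNF. WDR72, a WD-repeat gene of enamel formation, had 4.75 and 4.77 with siRelA, against 5.53 and 5.68 with siRelB (at least 1.33-fold less with siRelA). ASIC1 ran the other way, with 5.52 and 5.47 on siRelA TNF and CTRL, against 4.77 and 4.89 on siRelB TNF and CTRL. A limma fit with the spread of the siNC CTRL and siEZH2 CTRL replicates called no member and 0.0% of all genes between siRelA and siRelB (2 arrays each). In it, 4 members and 329 genes (2.68%) had an unadjusted p under 0.05. With the replicate number as a block, 2 members were lower with siRelA, PLD5 (limma adjusted p = 0.00891) and WDR72 (0.0451), where 0.538% of genes were lower and 0.326% higher. Over the alternatives the adjusted p ranged from 1.49e-10 to 1 for PLD5 and from 0.000155 to 1 for WDR72. Fits whose spread came from these 4 arrays alone called 6 members, 3 in each direction, PLD5, PLCXD1 and WDR72 lower with siRelA and ASIC1 and ZNF605 among those higher, where they called 6.78% of all genes in either direction. The authors' processed values, fitted over 6 arrays, called 15 members, where 16.5% of all genes were called.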

How the data were processed

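Total RNA of 12 MDA-MB-231 samples was hybridised to Illumina bead arrays, 1 colour and 1 array per sample. The deposited table gives the authors' average signal intensity per probe, linear and not normalized, per the file headers, with a detection score that rises with signal (the detection p is 1 minus the authors' score) and bead numbers. BeadStudio 3.2.7 is named in the submitters' processing notes. The authors' processed log2 values, an alternative here, equalled log2 signal minus a 75th percentile and a centre per probe, computed apart for 4 and for 8 arrays. A further 72 columns of per-sample values were not used.

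Signals were background-corrected (limma 3.58.1, R 4.3.3, normal-exponential, offset 16), quantile-normalized and kept where detection p was under 0.05 on at least 3 arrays, 1 probe per gene (a member's own probe, otherwise the brightest). Fits used lmFit and eBayes with Benjamini-Hochberg adjustment. Array number and signal over background limit precision. Same-numbered siEZH2 and siNC CTRL arrays deviated together (correlations 0.756, 0.836 and 0.654). The main fits did not use this pairing, and a block by replicate number was fitted as an alternative only. Named genes are those with the largest differences, called in a test or on a list. On simulated data, the siEZH2 TNF test recovered 0%, 60.5% and 95.5% of 200 genes changed by 1, 2 and 3 on the log2 scale among 12276. The simulated noise had the spread of the siNC CTRL and siEZH2 CTRL replicates, not of the arrays in that test, so these rates need not hold for it. For the same changes the TNF test recovered 0%, 86% and 99.5%, and the siRelA minus siRelB test 0%, 81% and 98.5%. Gene names follow GRCh38.p14. Members and lists were chosen with earlier results of these data known.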

Additional observations from a re-analysis of the deposited data

How the results depend on the processing

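Of the 6 comparisons, the count of 61 members called on siEZH2 TNF against the arrays keeping EZH2 stayed between 50 and 73 except under the filter on the 6 arrays themselves, which tests 51 members and called 19. For siEZH2 TNF minus siNC TNF the 58 members over 2-fold became 16 without background correction, 24 under that filter and 16 in the authors' processed values. Over all genes, 1473, 852, 1418 and 817 passed 2-fold in either direction, in the same order. For siRelA TNF minus siNC TNF, 2 members past 2-fold became 0 without background correction and in the authors' values, and 1 with 75th percentile scaling or an additive fit over 12 arrays. For siRelB TNF minus siNC TNF, 3 became 1 without background correction and in the authors' values. No TNF effect over siRelA and siRelB was called for a member under any alternative run, the replicate block (0 members) included. In the main run no other gene was called either. Between siRelA and siRelB the 0 members called became 2 with the replicate block, 6 in an additive fit over 6 or over 4 arrays and 15 in the authors' values fitted the same way, an alternative chosen after seeing the data (6.78%, 6.78% and 16.5% of all genes for the last 3). The block was fitted in these 2 comparisons only. The rule found 64 genes at p under 0.01 on siEZH2 CTRL, and 144 to 267 with 1 array left out. At p under 0.01 members detected were 3 on siNC TNF, 9 and 10 on siRelA TNF and CTRL, and 16 and 11 on siRelB TNF and CTRL. Of the other siNC-undetected probes, 0.421% to 1.29% were detected on these arrays. Of 40 named members called on siEZH2 TNF, 34 kept the call under every alternative run, while BMF, DEPTOR, FBLN7, PML, SPATA33 and TMEM143 lost it under some. Leaving out siEZH2 TNF itself leaves no such test. On siEZH2 TNF 49 of 122 members were over 1.5 times background, and on siNC TNF 0, which limits folds to bounds.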
